A study of Arabidopsis thaliana with 9 samples.

Results

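The dark and sugar starvation genes studied here are transcripts named for their appearance in leaves kept in the dark or short of sugar, or for dormancy, together with BCAT2 and MEE14. The 8 members were chosen by locus identifier: DIN10 (AT5G20250), SEN1 (AT4G35770, also DIN1), ASN1 (AT3G47340, also DIN6), DIN2 (AT3G60140), DIN4 (AT3G13450), DRM1 (AT1G28330), BCAT2 (AT1G10070) and MEE14 (AT2G15890). DIN2, a beta-glucosidase gene, was not analysed here, so 7 members are described, out of 21176 genes in the table. All 7 passed the filter on low values, a mean normalised count of at least 10 over all libraries, as did 18650 genes in all. The leaves came from hydroponically grown Arabidopsis thaliana of the Col-0 background at 5 weeks of age, under 13 h of light and 11 h of dark. Phase 1 plants had their NaCl raised by 15 mM each day to 90 mM and were sampled 2 days after that level was reached. Phase 0 plants were sampled 1 h after a single shock of 105 mM NaCl, and Control plants are labelled as control only. Each group has 3 libraries, and nothing in the labels says whether these are separate plants or cultures, so p-values measure only the spread between these libraries. The labels do not give the hour of day at harvest.

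Leaves short of carbon activate SnRK1, a kinase related to yeast Snf1 and animal AMPK, which acts in part through bZIP transcription factors of groups C and S1. Sugar represses many of the transcripts that this pathway raises. DIN10 encodes a protein of the raffinose synthase family, and SEN1 a rhodanese-like protein that is also a marker of dark-induced senescence. ASN1 makes asparagine from glutamine and aspartate, which stores nitrogen with little carbon. BCAT2 removes the amino group of branched-chain amino acids, and DIN4 encodes the E1 beta subunit of the mitochondrial complex that oxidises the resulting keto acids, whose electrons can feed respiration. DRM1 belongs to the dormancy-associated protein family.

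Promoter sequence is shown for 4 members, MEE14 and DIN10 because their transcripts carry the main differences below, and DRM1 and ASN1 because they hold searched motifs. Each run is the 250 bases before the annotated gene start in RefSeq's TAIR10.1 assembly, read 5′ to 3′ on the gene's strand. Capitals mark a match to any of 5 motifs on either strand: the G-box (CACGTG), the sugar-response sequence TATCCA known from rice amylase promoters, the sequence ACTCAT known from a proline dehydrogenase promoter, the evening element (AAATATCT) and the CCA1-binding site (AAAAATCT). None of these matches overlaps another. The windows lie at chr2:6922162-6922411 (minus strand) for MEE14, chr5:6833314-6833563 (plus strand) for DIN10, chr1:9935441-9935690 (minus strand) for DRM1 and chr3:17441432-17441681 (minus strand) for ASN1.
MEE14: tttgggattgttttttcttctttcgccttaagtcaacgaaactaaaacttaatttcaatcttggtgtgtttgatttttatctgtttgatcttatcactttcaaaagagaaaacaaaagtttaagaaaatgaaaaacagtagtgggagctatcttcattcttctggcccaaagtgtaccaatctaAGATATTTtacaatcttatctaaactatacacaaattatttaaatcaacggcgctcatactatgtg
DIN10: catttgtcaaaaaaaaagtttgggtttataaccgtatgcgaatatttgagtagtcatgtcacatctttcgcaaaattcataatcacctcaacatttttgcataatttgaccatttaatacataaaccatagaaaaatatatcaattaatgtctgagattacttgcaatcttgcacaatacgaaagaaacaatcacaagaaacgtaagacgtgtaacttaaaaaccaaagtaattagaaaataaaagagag
DRM1: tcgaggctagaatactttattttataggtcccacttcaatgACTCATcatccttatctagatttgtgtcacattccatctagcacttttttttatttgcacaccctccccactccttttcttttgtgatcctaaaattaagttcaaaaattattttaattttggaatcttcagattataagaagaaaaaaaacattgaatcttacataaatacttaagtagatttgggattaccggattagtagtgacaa
ASN1: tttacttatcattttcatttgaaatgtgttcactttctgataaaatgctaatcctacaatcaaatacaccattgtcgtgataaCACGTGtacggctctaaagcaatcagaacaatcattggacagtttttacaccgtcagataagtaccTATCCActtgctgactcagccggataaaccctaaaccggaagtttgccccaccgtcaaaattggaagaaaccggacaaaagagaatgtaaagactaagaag
MEE14 held an evening element, a sequence bound by clock factors, 66 to 59 bases before its start and on the opposite strand. That motif was present in 4.93% of the 21053 windows of the same length before nuclear genes of the table. ASN1 held a G-box, the core that many bZIP factors bind, 167 to 162 bases before its start, and TATCCA at 101 to 96 bases. These motifs were present in 7.24% and 14.1% of windows. DRM1 held ACTCAT 209 to 204 bases before its start, as did 12% of windows. The windows of DIN10, SEN1, DIN4 and BCAT2 held none of the 5 motifs, and the CCA1-binding site was in 0 of the 7 members' windows and 6.67% of all. The windows of ASN1, DRM1, SEN1 and DIN4 each overlap another annotated gene. A match in these letters is not a measured binding site.

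In Phase 1 leaves these transcripts were low: with limma, 5 of the 7 members (MEE14, SEN1, DIN10, DRM1 and DIN4) fell against Control, and the same 5 fell against Phase 0. The fitted falls against Control ran from 2.07-fold for DIN4 to 85.1-fold for MEE14. In Phase 0 leaves DIN10 fell 4.15-fold and 6 members did not pass the threshold. No member rose in any of the 3 comparisons. Among all 18650 genes tested, 18.6% were called lower in Phase 1 against Control, 14.4% in Phase 1 against Phase 0 and 1.66% in Phase 0 against Control. Calls in either direction made up 36.1%, 28.1% and 2.93% of tested genes in those comparisons, with 1.28% called higher in Phase 0 against Control. Every Phase 1 library lay below every library of the other group for the same 5 members, against Control and against Phase 0, as it did for 23.7% and 25.3% of tested genes. The median log2 fold change of the 7 members was -3.54, -2.07 and -0.31 in those comparisons, beside 0.00, -0.01 and 0.01 over all tested genes. Fold changes here are of the fitted log2(normalised count + 1), a call is a Benjamini-Hochberg adjusted p under 0.05 over all tested genes, and the comparisons share their libraries.

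**Figure D1:**
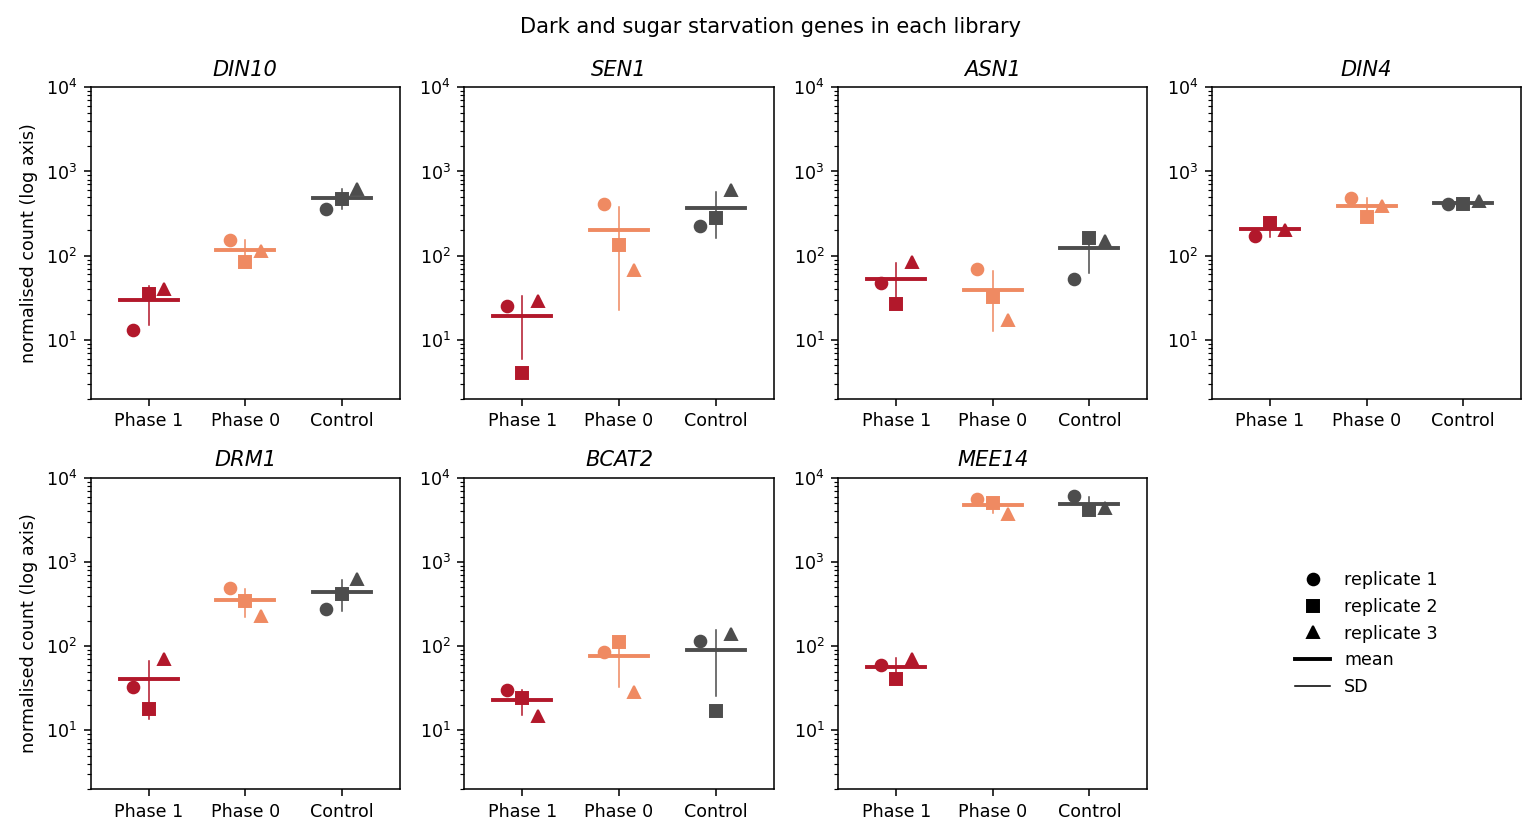
Normalised counts (log axis) of the 7 members in every library, by group from Phase 1 through Phase 0 to Control; symbols are replicates, thick lines group means and thin lines SD. The 3 Phase 1 libraries of MEE14 sit between 41 and 70, and all 6 other libraries between 3762 and 6124.

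The libraries held 22786946 to 27820610 normalised counts each. The spacing of low values showed that 1 read was worth 0.916 to 1.32 normalised counts in 7 libraries and left it unsettled for Phase 0 replicate 3 and Phase 1 replicate 3. A count of 3 reads, the floor used here for counting error only, corresponds to 2.75 to 3.97 normalised counts. Principal component 1, with 56.8% of the variance, set the Phase 1 libraries apart. The share of organelle-encoded transcripts was 0.605% in Phase 0 replicate 2, and elsewhere ran from 0.0414% to 0.0575%. The 5 leaf mesophyll markers summed to 1164479 to 1361515 normalised counts in Phase 1, 1336405 to 1434507 in Phase 0 and 1570889 to 1802751 in Control, and 1 of the 5 fell in Phase 1 against Control (0 to 2 under the alternatives run). In Phase 0 against Control 0 of 5 passed with limma (0 to 1 under the alternatives run). In each of these comparisons 3 of 5 had an unadjusted p under 0.05. The sums of both salt groups lay below every Control sum. A root marker, the 1 of 4 with a row, stood at 0 to 2 in every library. The material is bulk tissue, in which fewer cells of a type and less RNA per cell cannot be told apart.

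DIN10, the member of the raffinose synthase family, was the 1 member called lower in both salt treatments. It had 13, 35 and 40 normalised counts in Phase 1 replicates 1 to 3, 155, 84 and 114 in Phase 0 and 361, 477 and 627 in Control. The 3 groups did not overlap, and Phase 0 lay between the others. Its mean was 29.3 ± 14.4 in Phase 1, 118 ± 35.6 in Phase 0 and 488 ± 133 in Control (SD, n = 3 each). The log2 fold change was -4.12 in Phase 1 against Control (SE 0.40, adjusted p = 4.46e-05), -2.07 in Phase 1 against Phase 0 (SE 0.40, adjusted p = 0.00339) and -2.05 in Phase 0 against Control (SE 0.40, adjusted p = 0.0241). The Phase 0 call was lost without Control replicate 3, Phase 0 replicate 2 or Phase 0 replicate 3. Its adjusted p was then 0.104, 0.103 and 0.106, and the log2 fold change -1.85, -1.83 and -2.05. Whichever single library was left out, this change stayed between -2.27 and -1.83. Every library of Phase 0 lay below every library of Control for 12.1% of tested genes, and for DIN10 alone among the 7.

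SEN1, the dark-inducible senescence gene, fell 21.3-fold in Phase 1 against Control and varied widely within each group. It had 25, 4 and 29 normalised counts in Phase 1, 408, 133 and 68 in Phase 0 and 222, 277 and 604 in Control. All Phase 1 libraries lay below the others, while Phase 0 and Control overlapped. The 4 in Phase 1 replicate 2 is close to the 3.21 that 3 reads are worth in that library. The log2 fold change was -4.41 against Control (SE 0.76, adjusted p = 0.00145) and -3.31 against Phase 0 (SE 0.76, adjusted p = 0.00901). Without Phase 1 replicate 2 these were -3.58 and -2.48, and with a pseudocount of 8 the value against Control was -3.81. The value against Phase 0 was -2.61 without Phase 0 replicate 1 and -3.90 without Phase 0 replicate 3. For Phase 0 against Control it was -1.10 (SE 0.76, adjusted p = 0.464), with a mean of 203 ± 181 in Phase 0 and 368 ± 207 in Control.

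DRM1, the dormancy-associated gene, fell 11.7-fold in Phase 1 against Control and 9.41-fold against Phase 0. Its values were 33, 18 and 70 in Phase 1, 487, 342 and 227 in Phase 0 and 276, 420 and 622 in Control. Phase 1 lay below both other groups in every library, and the other two overlapped. The log2 fold change was -3.54 against Control (SE 0.47, adjusted p = 0.000292) and -3.23 against Phase 0 (SE 0.47, adjusted p = 0.000623). In Phase 0 it was -0.31 (SE 0.47, adjusted p = 0.767). DRM2 (AT2G33830), the close relative of DRM1 in the same family, had 13, 13 and 31 normalised counts in Phase 1, 2099, 2472 and 911 in Phase 0 and 2599, 1913 and 2306 in Control. It fell 122-fold in Phase 1 against Control (log2 fold change -6.94, SE 0.39) and had a log2 fold change of -6.51 against Phase 0. Of the 4 tested family relatives of the members, DRM2 among them, 2 fell, 1 rose and 1 did not pass in Phase 1 against Control. Without Control replicate 3 or without Phase 1 replicate 3, 1 of these calls was left.

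MEE14, named from a screen for embryo arrest, had the largest fold change of the 7 members. It stood at 60, 41 and 70 normalised counts in Phase 1, 5540, 5040 and 3762 in Phase 0 and 6124, 4183 and 4372 in Control. The mean was 57 ± 14.7 in Phase 1, 4781 ± 917 in Phase 0 and 4893 ± 1070 in Control (SD, n = 3 each). Phase 0 and Control overlapped, and their difference was within the spread of the replicates (log2 fold change -0.03, SE 0.23, adjusted p = 0.959). The log2 fold change was -6.41 in Phase 1 against Control (SE 0.23, adjusted p = 1.73e-07) and -6.38 against Phase 0 (SE 0.23, adjusted p = 9.51e-08).

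ASN1, which makes asparagine, had no call in any comparison. Its values were 47, 27 and 85 in Phase 1, 69, 32 and 17 in Phase 0 and 53, 162 and 150 in Control. Each pair of groups overlapped, and 2 of the 3 Control libraries lay above all 6 salt libraries. The log2 fold change was -1.17 in Phase 1 against Control (SE 0.58, adjusted p = 0.142), -1.67 in Phase 0 against Control (SE 0.58, adjusted p = 0.163) and 0.49 in Phase 1 against Phase 0 (SE 0.58, adjusted p = 0.572). Without Control replicate 1, its lowest Control library, the Phase 1 value was -1.69 at an adjusted p of 0.0447. Beside DIN10, ASN1 was the only member at an unadjusted p under 0.05 in Phase 0 against Control.

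Of the members of branched-chain amino acid breakdown, DIN4 fell in Phase 1 and BCAT2 did not pass. DIN4, the E1 beta subunit gene, had 169, 243 and 202 normalised counts in Phase 1, 481, 286 and 390 in Phase 0 and 407, 412 and 444 in Control. Phase 1 did not overlap either other group, and the mean was 205 ± 37.1 in Phase 1, 386 ± 97.6 in Phase 0 and 421 ± 20.1 in Control. DIN4 fell 2.07-fold against Control (log2 fold change -1.05, SE 0.20, adjusted p = 0.00251) and 1.86-fold against Phase 0 (adjusted p = 0.00766). Its log2 fold change in Phase 0 against Control was -0.16 (SE 0.20, adjusted p = 0.715).

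BCAT2, the transaminase gene, had 30, 24 and 15 normalised counts in Phase 1, 86, 113 and 29 in Phase 0 and 114, 17 and 139 in Control. Each pair of groups overlapped. Control replicate 2 lay at the level of the Phase 1 libraries, and Phase 0 replicate 3, at 29, lay below Phase 1 replicate 1. The log2 fold change in Phase 1 was -1.52 against Control (SE 0.74, adjusted p = 0.134) and -1.53 against Phase 0 (SE 0.74, adjusted p = 0.151). Without Control replicate 2 the adjusted p was 0.00639 against Control, at -2.46, and 0.0354 against Phase 0, at an unchanged -1.53. That library is in neither Phase 1 nor Phase 0 and enters their comparison through the spread that the 3 groups share. For Phase 0 against Control the log2 fold change was 0.01 (SE 0.74, adjusted p = 0.995).

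**Figure D2:**
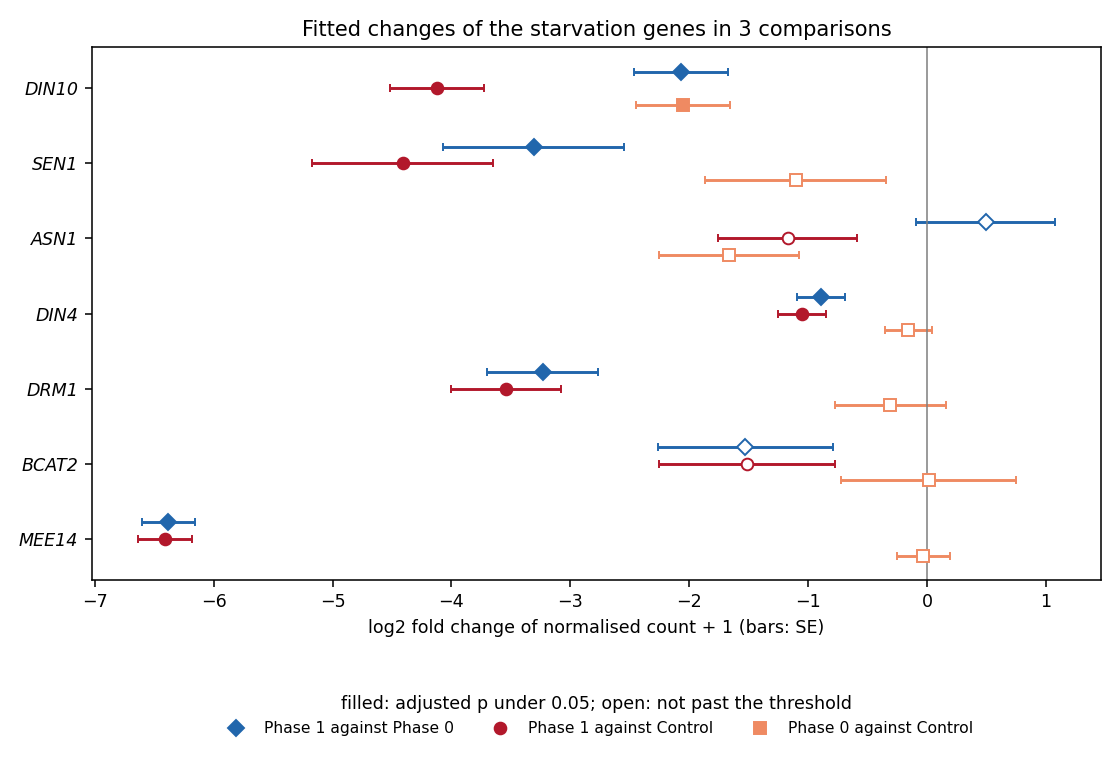
Fitted log2 fold change (x axis, bars SE) of each member in Phase 1 against Phase 0, Phase 1 against Control and Phase 0 against Control; filled symbols passed an adjusted p of 0.05. All 7 Phase 1 values against Control are negative, from -6.41 for MEE14 to -1.05 for DIN4, and in Phase 0 only DIN10 is filled.

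Scaled to the longest RefSeq transcript, so that genes can be compared, the order of the levels differed between groups. In Phase 1, DIN4 was highest at 150 ± 27.3 normalised counts per kilobase. Below it came MEE14 at 35.1 ± 9.08, DRM1 at 27.0 ± 17.9, ASN1 at 21.7 ± 12.1, SEN1 at 16.7 ± 11.6, BCAT2 at 13.8 ± 4.53 and DIN10 at 9.74 ± 4.77. Neighbours after DIN4 in this order differed by less than the larger SD of each pair. In Phase 0, MEE14 was highest at 2950 ± 565 per kilobase and ASN1 lowest at 16.1 ± 11.0. In Control, MEE14 stood at 3020 ± 660 per kilobase, SEN1 at 317 ± 178, DIN4 at 310 ± 14.8, DRM1 at 294 ± 116, DIN10 at 162 ± 44.3, BCAT2 at 54.0 ± 38.6 and ASN1 at 49.9 ± 24.5. There SEN1 and DIN4, DIN4 and DRM1, and BCAT2 and ASN1 differed by less than the larger SD of each pair. MEE14 was thus the highest of the 7 in Phase 0 and Control, and DIN4 in Phase 1.

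Most of these transcripts also varied between replicates more than other genes did. The SD of log2 values within groups, pooled over the 3 groups, was 1.20 for SEN1, 1.15 for BCAT2, 0.90 for ASN1, 0.72 for DRM1 and 0.60 for DIN10, against a median of 0.23 over all tested genes. These values exceed those of 99.1%, 99%, 97.7%, 95.6% and 92.3% of tested genes. Genes were not matched for level in this ranking, and the part of counting error was not tested. DIN4 (0.27) and MEE14 (0.33) lay closer to the median. The libraries that were high or low tended to be shared by several members. Phase 1 replicate 3 was the highest of its group for 5 of 7 members and Phase 1 replicate 2 the lowest for 4. Phase 0 replicate 1 was the highest for 6 and Phase 0 replicate 3 the lowest for 5. Control replicate 3 was the highest for 5 and Control replicate 1 the lowest for 5. SEN1, ASN1, DRM1 and MEE14 had the same order of libraries within Phase 0, and SEN1, DRM1, DIN10 and DIN4 within Control. Whether this sharing is beyond chance was not tested.

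**Figure D3:**
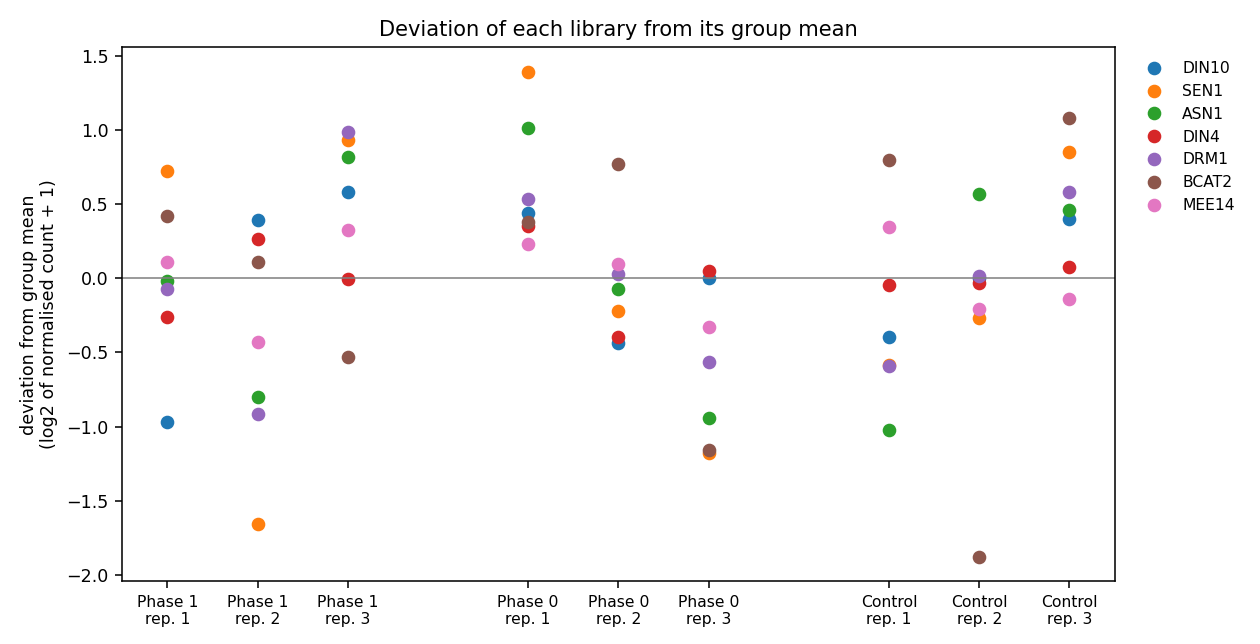
Deviation of each library from its group mean (log2 of normalised count + 1, y axis) for the 7 members, coloured by gene, in the libraries of Phase 1, Phase 0 and Control. In Phase 0 replicate 1 all 7 points lie above 0, and in Phase 0 replicate 3 BCAT2, SEN1 and ASN1 lie lowest.

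Other genes tied to starvation and SnRK1 were read beside the members. Of 20 tested markers in a list that leaves the members out, 14 fell, 4 rose and 2 did not pass in Phase 1 against Control. Their median log2 fold change was -1.64. Among all tested genes, 18.6% were called lower and 17.4% higher in that comparison. The counts of the lists below stand beside the same shares. In Phase 1 against Phase 0, 15 fell and 5 rose, and in Phase 0 against Control 2 fell (PRODH1 and BXL1) and 18 did not pass. The locus AT3G15450, annotated as an aluminium-induced protein, had 38, 47 and 104 normalised counts in Phase 1, 1298, 486 and 357 in Phase 0 and 634, 1025 and 1503 in Control. It fell 17.1-fold in Phase 1 against Control (adjusted p = 0.000207). Its highest and lowest libraries within Phase 0 and Control were those of SEN1 and DRM1. BT2 (AT3G48360), a BTB-domain scaffold gene that sugar represses, fell to 1, 2 and 2 in Phase 1, at or under the value of 3 reads, against 32, 22 and 20 in Phase 0 and 41, 31 and 67 in Control.

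The 4 list genes that rose against Control show that the list did not move as a block. MGL (AT1G64660), methionine gamma-lyase, rose 11.3-fold in Phase 1 against Control, to 1874 ± 506 against 169 ± 60.6. THA1 (AT1G08630), threonine aldolase, rose to 45, 79 and 29 in Phase 1 against 3, 5 and 5 in Control, which is near the value of 3 reads (3.56 to 3.97), so that its log2 fold change was 3.19 with a pseudocount of 1 and 2.17 with 8. DIN9 (AT1G67070), a phosphomannose isomerase gene also known as dark-inducible, rose 5.57-fold to 429 ± 171 in Phase 1 against 72.7 ± 11.0 in Control, and BAM9 (AT5G18670), a beta-amylase family gene, was the fourth. DIN9 and BAM9 were chosen for naming after their values were seen. In Phase 0 against Control BXL1 (AT5G49360), a beta-xylosidase, fell with a log2 fold change of -1.46 and PRODH1 (AT3G30775), a proline dehydrogenase, with -1.62. The BXL1 call was lost when Control replicate 3, Phase 0 replicate 1 or Phase 0 replicate 3 was left out and with the replicate block (highest adjusted p 0.100). That of PRODH1 was lost when Control replicate 3, Phase 0 replicate 2 or Phase 0 replicate 3 was left out (highest adjusted p 0.0952).

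Genes that act beside single members did not all follow them. In a list of 20 genes for branched-chain amino acid breakdown, without DIN4 and BCAT2, 5 fell, 2 rose and 13 did not pass in Phase 1 against Control, with a median of 0.07. Calls in either direction made up 36.1% of all tested genes there, so these counts do not set the list apart. The list takes in the transaminase genes BCAT3 and BCAT5, whose part in breakdown was not tested, and BCAT3 is among those that fell. Partners of DIN4 in the keto acid dehydrogenase, chosen after their values were seen, did not all move alike. An E1 alpha gene, AT1G21400, rose 2.99-fold, to 2500, 1247 and 1535 normalised counts in Phase 1 against 687, 511 and 507 in Control (adjusted p = 0.000826). The other E1 alpha gene on the list, AT5G09300, did not pass (log2 fold change 0.46, adjusted p = 0.412). The other E1 beta gene, BCDH BETA1 (AT1G55510), fell 1.49-fold to 169, 212 and 187 in Phase 1 against 300, 250 and 295 in Control (adjusted p = 0.0117). DIN3 (AT3G06850), the E2 subunit gene, had a log2 fold change of -0.44 and an adjusted p of 0.051. BCAT1 (AT1G10060), the neighbouring gene for the mitochondrial transaminase, fell 2.64-fold in Phase 1 against Control (adjusted p = 0.000502).

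Around ASN1, 3 of 11 genes of asparagine and glutamine metabolism rose, 2 fell and 6 did not pass in Phase 1 against Control. ASPGB1 (AT3G16150), an asparaginase that breaks asparagine down, rose 20.6-fold, to 444 ± 102 in Phase 1 against 24.3 ± 17.9 in Control, and stood at 13.0 ± 6.08 in Phase 0. ASN2 (AT5G65010), a second asparagine synthetase gene, fell 1.77-fold to 2267 ± 169 in Phase 1 against 4028 ± 377 in Control. In Phase 0 against Control its log2 fold change was -0.60 (adjusted p = 0.0208), a call lost when Control replicate 3, Phase 0 replicate 2 or Phase 0 replicate 3 was left out and with the replicate block (highest adjusted p 0.117).

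Upstream, 2 of 7 SnRK1 subunit genes fell, 1 rose and 4 did not pass in Phase 1 against Control, and 0 of 7 passed in Phase 0 with limma, where 1 had an unadjusted p under 0.05 (0 to 1 passed under the alternatives run). AKINBETA1 (AT5G21170), a beta subunit gene itself repressed by sugar, had 77, 77 and 142 normalised counts in Phase 1, 288, 233 and 197 in Phase 0 and 423, 463 and 475 in Control. Of 9 bZIP factors of groups C and S1, 3 rose, 3 fell and 3 did not pass in Phase 1 against Control. BZIP63 (AT5G28770), a target of SnRK1, fell 4.14-fold in Phase 1 against Control, with 87, 96 and 184 in Phase 1, 208, 113 and 116 in Phase 0 and 527, 357 and 591 in Control. It also fell in Phase 0 (log2 fold change -1.78, adjusted p = 0.021), a call lost when any 1 of Control replicate 3, Phase 0 replicate 2 and Phase 0 replicate 3 was left out (highest adjusted p 0.108 among these). In autophagy, which also responds to starvation, 3 of 12 genes fell and 9 did not pass in Phase 1 against Control, among them ATG8E (AT2G45170) at 4.70-fold lower. The autophagy count of 3 was 1 without Phase 1 replicate 2 or without Phase 1 replicate 3. Of all tested genes, 18.6% were called lower in Phase 1 against Control and 17.4% higher.

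Genes that sugar raises went the other way. All 8 on that list rose in Phase 1 against Control, with a median log2 fold change of 3.51. In Phase 0 against Control 0 of 8 passed with limma, at a median of 0.70 (0 to 2 passed under the alternatives run). There 5 had an unadjusted p under 0.05, a level whose share over all tested genes was not counted. BAM5 (AT4G15210), a beta-amylase, had 26917, 5614 and 7162 normalised counts in Phase 1, 2000, 2840 and 2755 in Phase 0 and 488, 1355 and 586 in Control. PAP1 (AT1G56650), a MYB factor of anthocyanin synthesis, had a log2 fold change of 4.21 in Phase 1 against Control. Phase 1 replicate 1 held the highest value of both genes, and without it their log2 fold changes were 3.12 for BAM5, against 3.81 with it, and 3.55 for PAP1. DFR and LDOX, which make anthocyanin, and CHS, an enzyme gene of flavonoid synthesis, are on this list beside PAP1. Its count is thus partly a count of pigment genes.

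**Figure D4:**
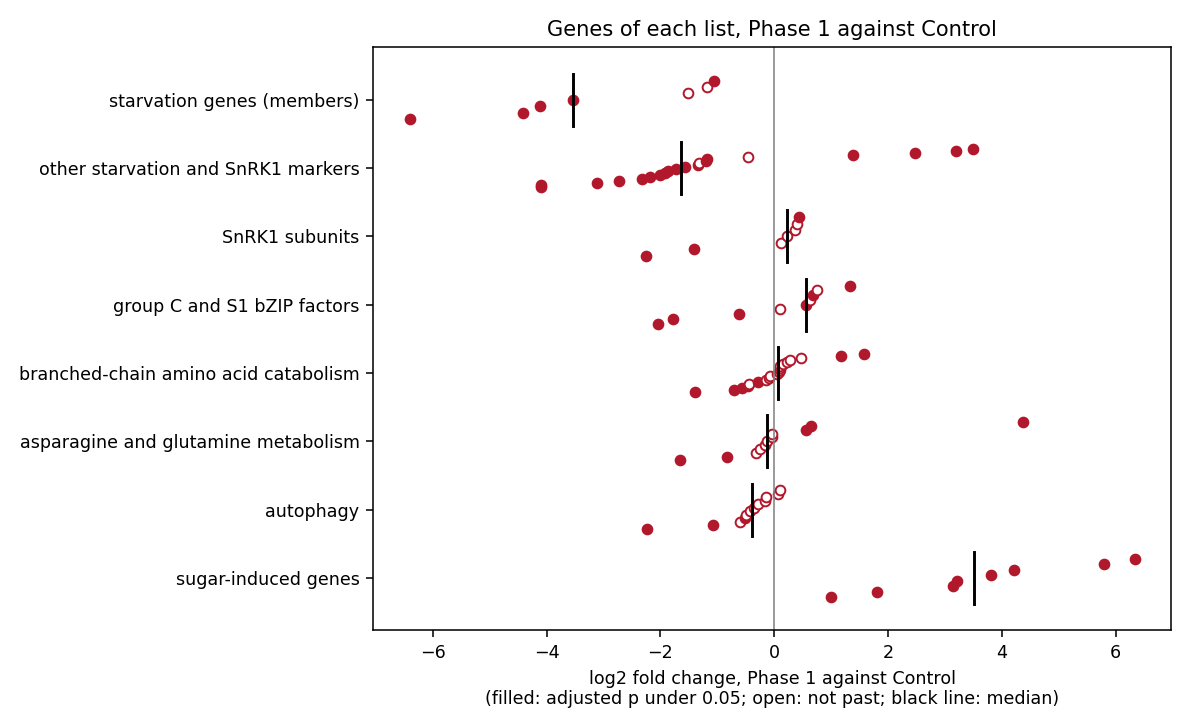
Log2 fold change in Phase 1 against Control (x axis) of each tested gene in the 7 members and 7 related lists; filled points passed an adjusted p of 0.05 and black lines are medians. The members' median of -3.54 lies left of 0 and the median of the sugar-induced genes, 3.51, right of it.

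Clock genes moved in the same Phase 1 libraries as the members. In Phase 1 against Control 7 of 8 evening genes fell (median -3.07) and 4 of 5 morning genes rose (median 3.70). In Phase 0 against Control 5 of 8 evening genes rose and 0 of 5 morning genes passed with limma, with 0 at an unadjusted p under 0.05. The evening count of 5 was 2 when Control replicate 3 or any 1 of the Phase 0 libraries was left out, and 3 without Control replicate 2. In the phloem list SWEET12 and SUC2, both sugar transporter genes, fell in Phase 1 against Control, and the 4 markers summed to 9968 to 11979 in Phase 1, 11320 to 11883 in Phase 0 and 10764 to 13290 in Control. Of 11 leaf senescence genes, 3 rose, 4 fell and 4 did not pass in Phase 1 against Control. Of 3 guard cell, 3 xylem and 3 epidermis markers, 0 passed in Phase 1 against Control with limma. Among the epidermis markers 1 had an unadjusted p under 0.05, and 0 to 2 passed under the alternatives run. The 1 flower marker with a row summed to 17 to 24 in Phase 1, 21 to 37 in Phase 0 and 16 to 27 in Control and passed in 0 comparisons, also at an unadjusted p under 0.05. The hour of harvest is not given in the labels. The part of the clock genes, phloem or senescence in the members' values was not tested.

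The genes whose pattern was most like each member were taken as the 3 highest Pearson correlations of log2 values over the 9 libraries among 6819 named genes with a mean of at least 100. For MEE14 these were RbcX1 (AT4G04330), a Rubisco chaperone gene, at r = 0.997, GRP7 (AT2G21660), a clock-controlled RNA-binding protein gene, at 0.996, and GSH2 (AT5G27380), a glutathione synthetase gene, at 0.995. RbcX1 averaged 131 normalised counts in Phase 1, 2602 in Phase 0 and 2301 in Control. For DRM1 they were PP2-A13 (0.985), ECIP1 (0.977) and MEE51 (0.976), and for SEN1 ST2A (0.963), IAA29 (0.957) and ATG8E (0.953). For DIN10 they were TUA5 (0.985), whose reads may be shared with a close copy, TUA3, MFP1 (0.979) and HEME1 (0.979), and for DIN4 CPB (0.973), OFP13 (0.97) and APG10 (0.969). ASN1 and BCAT2, the members with no call, had lower best values, 0.916 with CRY1 and 0.923 with COX19-1. The groups separate strongly in these libraries, so that 503 of the 6819 genes had r above 0.9 with MEE14, against 3 for ASN1 and 1 for BCAT2. These values describe likeness over 9 libraries that share 3 treatments.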

How the data were processed

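Stranded poly(A) libraries were read as single ends, per the labels' protocols. Each deposited value is treated as a score: whole-number counts, marked as normalised in the file's name, whose low values are spaced like reads divided by a library factor and rounded. Tools listed in the submitters' processing notes, without roles, are DESeq2 1.62, featureCounts 1.4.5-p1, STAR 2.4.0a, Subread and FastQC, and the listed build is TAIR10. How strand was counted is not given in the sources used here. The annotated genes DIN10, ASN1, DIN4 and BCAT2 overlap an opposite-strand gene by 82, 11, 27 and 161 bases.

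Because the values are not raw counts, limma-trend (limma 3.58.1, run under R 4.3.3) was fitted to log2(value + 1) of genes with a mean of at least 10, with all 9 libraries in 1 model of 3 groups. Benjamini-Hochberg adjustment ran over all 18650 tested genes, and a call needed an adjusted p under 0.05. The share of all tested genes at an unadjusted p under 0.05 was not counted, so counts at that level have no background here. The fit was tested on simulated data with the same added spread for every gene. It recovered 2%, 52%, 98% and 100% of log2 changes of 0.5, 1, 2 and 3, with 4 false calls. Recovery at the spread of SEN1, BCAT2 and ASN1 was not tested. The members, 19 gene lists (149 loci, 139 in the table), tests and motifs were chosen with earlier results of these data known. All 7 members are named, plus up to 4 genes per list and comparison with the largest changes past the threshold, and the 3 genes most like each member. Names and sequences are from RefSeq (TAIR10.1), which had 21054 of the 21176 loci. The worth of 1 read was fitted to values of at most 120, and accepted above a log-likelihood gain of 50. Alternatives were other pseudocounts, filters, normalisations, variance models and samples in the fit, the replicate number as a block, and libraries left out. Tables and figures used pandas 2.3.3, numpy 2.4.6 and matplotlib 3.10.9 under Python 3.11.15.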

Additional observations from a re-analysis of the deposited data

How the results depend on the processing

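The calls of the 7 members in Phase 1 held in every alternative run: at least 5 fell against Control and 5 against Phase 0, and 6 with ASN1 or BCAT2 added in some. In Phase 0 against Control the count of members past the threshold was 1, ran from 0 to 1 with single libraries left out, and was 0 without both Control replicate 1 and Phase 0 replicate 2, where DIN10 had an adjusted p of 0.0931. Over all genes that comparison called 547, with 118 to 882 when single libraries were left out and 212 without both of those libraries; the cause was not tested. Phase 1 against Phase 0 called 5249, with 3379 to 6710 when single libraries were left out.

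Signs turned only among changes close to 0 in Phase 0 against Control. BCAT2, 0.013 in the reported fit, was -0.030 with a pseudocount of 8, -0.034 with quantile normalisation and between -0.93 and 0.59 with single libraries left out. MEE14 was 0.029 with quantile normalisation, 0.094 without both libraries named above and between -0.15 and 0.14 with single libraries left out. DIN4 was 0.018 without both libraries and between -0.33 and 0.042 with single libraries left out. Of 399 values for the members under alternatives, 380 kept direction and side of the threshold. BCAT2 in Phase 1 against Phase 0 also passed when only those groups were fitted, at an adjusted p of 0.0465.

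With the replicate number as a block, the counts of members past the threshold were 1, 5 and 5, as without it, and over all genes 372 in Phase 0 against Control, 6261 in Phase 1 against Control and 4835 in Phase 1 against Phase 0. Same-numbered libraries correlated at -0.252 to 0.252 in their deviations from group means, and 2 of 9 libraries were closest to their own number. With so few libraries these values cannot settle whether the numbers pair the samples. Depth limits values near that of 3 reads, among them SEN1 and BT2 in Phase 1 and THA1 in Control.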
